A study of Mus musculus with 8 samples.

Results

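Macrophages that came through a CD8 T cell isolation from MC38 tumours were described in a droplet single-cell data set. They numbered 381 of the 10670 barcodes of experiment 1 that passed the quality filters, and of 34278 such barcodes in the whole series. A barcode stands for a droplet, usually with 1 cell. A barcode was taken as a macrophage if it had at least 500 detected genes and under 10% mitochondrial unique molecular identifiers (UMIs, single captured RNA molecules). It also needed at least 10 UMIs in the sum of Lyz2, C1qa, C1qb, C1qc and Csf1r, at most 1 in the sum of the T cell receptor complex genes Cd3d, Cd3e and Cd3g, fewer than 10 of the neutrophil genes S100a8 and S100a9, and fewer than 3 of Fscn1 and Ccl22, which mark mature dendritic cells. The members were thus chosen by their UMIs of these genes, whose levels are a description and no finding.

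Experiment 1 set rhIL-7-hyFc (10 mg/kg, given under the skin, tumours taken 7 days later) against buffer. rhIL-7-hyFc is a long-acting form of interleukin-7, a cytokine that T cells need to survive, joined to a hybrid Fc part. All mice were wild type C57BL/6 animals bearing palpable tumours of MC38, a mouse colon carcinoma line. Their age, and the number of mice behind each library, are not given in the sources used here. Tumours were digested with collagenase D and DNase I at 37 °C, and CD8 T cells were enriched by positive selection on magnetic beads. The libraries are labelled as CD8 T cells, so a macrophage here is a cell that stayed with the selected fraction. Since each group was 1 library, differences have no check across replicates and no test was run. Intervals are at 95% and stand for the error of counting molecules or barcodes alone.

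Macrophages clear dead cells and debris, present peptides on MHC class II to CD4 T cells, and send chemokines that draw other leukocytes. In tumours they are refilled from blood monocytes, which lose Ly6c2 and Vcan and gain C1q genes as they mature. Tumour macrophages are often described along an interferon-gamma response with Cxcl9 and MHC class II and along a lipid-handling programme with Trem2, Spp1 and Apoe.

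The libraries of experiment 1 held 65036440 UMIs in 6361 barcodes with rhIL-7-hyFc and 47308214 UMIs in 5589 barcodes with buffer, and 45 barcode sequences occurred in both. Of these, 1 was a macrophage with rhIL-7-hyFc and 2 with buffer, none in both. The macrophages summed to 2325869 UMIs with rhIL-7-hyFc and 2066562 UMIs with buffer. A macrophage had a median of 14206.5 UMIs and 3311 genes with rhIL-7-hyFc, against 8953 UMIs and 2497 genes with buffer. The median mitochondrial share was 0.937% with rhIL-7-hyFc and 0.645% with buffer. Levels are given as UMIs summed over macrophages and scaled to counts per 1000000 UMIs (CPM), and as background the same was computed in T-cell barcodes, which had at least 3 Cd3 UMIs and at most 1 UMI of the macrophage genes (5502 barcodes with rhIL-7-hyFc, 3062 with buffer).

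The barcodes carried macrophage genes that the rule did not use. Fcgr1, the high-affinity IgG receptor, stood at 1147 CPM with rhIL-7-hyFc and 1309 CPM with buffer, with 0.812 CPM with rhIL-7-hyFc and 7.02 with buffer in T-cell barcodes. Adgre1, which encodes F4/80, had 175 CPM with rhIL-7-hyFc against 248 with buffer. Of the rule's own genes, Lyz2 had a UMI in 99.4% of macrophages with rhIL-7-hyFc against 91.1% with buffer. For Csf1r it was 92.3% of macrophages with rhIL-7-hyFc against 77.8% with buffer, and for C1qa 53.8% of macrophages with rhIL-7-hyFc against 77.8% with buffer. All 4 of Lyz2, C1qa, C1qb and Csf1r were present in 73 of 156 macrophages with rhIL-7-hyFc and 112 of 225 with buffer. The rule thus also took Lyz2-bearing cells with little or no C1q. All its barcodes are called macrophages here, and monocytes among them were not set apart. Ly6c2, a monocyte gene, cannot separate the cell types here: it stood at 2408 CPM with rhIL-7-hyFc and 2620.3 CPM with buffer in macrophages and at 3217 CPM with rhIL-7-hyFc and 2875 with buffer in T-cell barcodes.

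Macrophages made up 156 of 5973 barcodes with rhIL-7-hyFc (2.61%, interval 2.22 to 3.05) and 225 of 4697 with buffer (4.79%, 4.20 to 5.44). The share with rhIL-7-hyFc was 0.545 times that with buffer. It says how many macrophages were left per barcode after the bead selection, which also depends on how many T cells were caught, and not how many were in the tumour. The gap depended on how T cell RNA was handled. Of the macrophages, 36 of 156 (23.1%) carried the 1 Cd3 UMI that the rule allows with rhIL-7-hyFc, and 113 of 225 (50.2%) with buffer. Without these barcodes the shares were 2.01% with rhIL-7-hyFc and 2.38% with buffer. Without those that had a Cd8a or Cd8b1 UMI they were 2.23% with rhIL-7-hyFc and 2.60% with buffer, so most of the gap was gone under both. Inside the marker threshold, 6 barcodes with rhIL-7-hyFc and 20 with buffer had 10 to 14 marker UMIs, and just outside it 9 with rhIL-7-hyFc and 39 with buffer had 5 to 9.

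T cell receptor (TCR) contigs, which the rule did not use, were then counted in the same barcodes. A productive TCR chain was found in 0 of 156 macrophages with rhIL-7-hyFc, which allows a share of up to 1.92%, and in 1 of 225 with buffer (0.444%). T-cell barcodes had one in 96.3% with rhIL-7-hyFc and 82.2% with buffer. Barcodes with at least 10 macrophage marker UMIs and 2 or more Cd3 UMIs, which the rule leaves out, differed between the libraries. With rhIL-7-hyFc 50 of 68 (73.5%, 61.4 to 83.5) had a TCR contig, against 44 of 196 (22.4%, 16.8 to 28.9) with buffer. Of the buffer barcodes with exactly 2 or 3 Cd3 UMIs, 0 of 82 and 0 of 40 had one, which allows shares of up to 3.66% and 7.5%. Counting mixed barcodes without a TCR contig as macrophages gave 174 barcodes (2.91%) with rhIL-7-hyFc and 376 (8.01%) with buffer.

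**Figure D1:**
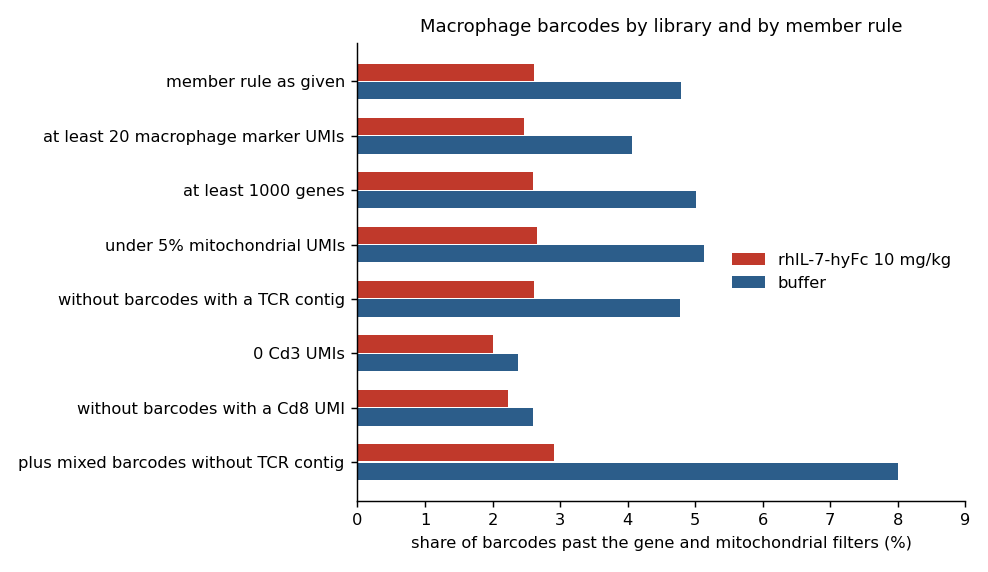
Share of filtered barcodes that count as macrophages (x axis, percent; bars start at 0 and carry no error bar) under the member rule and 7 variants of it (y axis), with rhIL-7-hyFc above buffer. The rhIL-7-hyFc bar is shorter under each variant drawn, at 2.01% against 2.38% with buffer when no Cd3 UMI is allowed and 2.91% against 8.01% with buffer when mixed barcodes without a TCR contig are added.

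T cell RNA in the macrophages also differed. Leaving out the Cd3 genes, the T cell marker list summed to 31.0 CPM in macrophages with rhIL-7-hyFc and 137 CPM with buffer, which is 0.706% (rhIL-7-hyFc) and 3.10% (buffer) of its level in the T-cell barcodes. Granzyme genes of killer T cells followed: Gzmb stood at 12.9 CPM with rhIL-7-hyFc and 164 CPM with buffer, with 2651 CPM with rhIL-7-hyFc and 4864 with buffer in T-cell barcodes. Gzmf stood at 5.59 CPM with rhIL-7-hyFc against 110.3 with buffer in macrophages. The 8 genes of the CD8 and cytotoxic list summed to 49.9 CPM with rhIL-7-hyFc and 406 CPM with buffer. After each barcode was thinned to 2300 UMIs, Gzmb was seen in 2.00% of macrophages with rhIL-7-hyFc and 31.3% with buffer. Among barcodes with no Cd3 UMI its log2 ratio was −3.45, against −3.57 in all. Free RNA in the droplets and attached T cell pieces were not told apart. Markers of most other cell types were low in both libraries. All 8 mast cell and all 5 red cell genes were at 0. The 7 NK cell genes summed to 3.01 CPM with rhIL-7-hyFc and 7.74 with buffer, the 11 conventional dendritic cell genes to 58.9 CPM with rhIL-7-hyFc and 46.5 with buffer, and the 10 mature dendritic cell genes to 77.4 CPM with rhIL-7-hyFc and 99.2 with buffer. The 10 neutrophil genes summed to 104 CPM with rhIL-7-hyFc and 105 with buffer, and the 10 B and plasma cell genes to 43.9 CPM with rhIL-7-hyFc and 35.8 with buffer. The 9 tumour epithelial genes summed to 16.8 CPM with rhIL-7-hyFc and 24.2 with buffer, and the 11 fibroblast and endothelial genes to 54.2 CPM with rhIL-7-hyFc and 67.7 with buffer. The 8 plasmacytoid dendritic cell genes summed to 2133 CPM with rhIL-7-hyFc and 2345 CPM with buffer, most of it Bst2, an interferon-induced gene that macrophages also express (1799 CPM with rhIL-7-hyFc against 2009.6 with buffer). Klk1 and Cox6a2 of that list had 33.5 CPM with rhIL-7-hyFc against 2.42 with buffer and 21.9 CPM with rhIL-7-hyFc against 5.81 with buffer, and 1 barcode carried 100% and 98.0% of these UMIs with rhIL-7-hyFc. The part of these other cells in the results that follow was not tested.

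Of 5370 genes with at least 20 CPM in macrophages of either library, 302 were at least 1.5-fold higher with rhIL-7-hyFc (5.62%) and 410 at least 1.5-fold lower (7.64%), on log2 of CPM + 1. The median over all of them was a log2 ratio of −0.014. Calls are folds past a size, with no test behind them. Counts of list genes past the fold are to be read beside these shares of all genes. Scaling by TMM factors gave 377 higher and 318 lower, and median-of-ratios factors gave 431 higher and 279 lower, so whether more genes were higher or lower depended on the scaling. Among genes with at least 50 CPM in either library that the naming rule takes, the highest ratio was that of Cxcl9, a chemokine that interferon-gamma induces and that draws CXCR3-bearing T cells, with 592 CPM with rhIL-7-hyFc and 92.4 CPM with buffer, 6.41-fold higher (5.50 to 7.49). It had a UMI in 43.6% of macrophages with rhIL-7-hyFc against 13.8% with buffer. Upp1, which encodes uridine phosphorylase, followed with 270.0 CPM with rhIL-7-hyFc and 43.6 CPM with buffer, 6.20-fold higher (4.96 to 7.82).

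The other genes among the 10 highest by the naming rule were Fn1 and Vcan, matrix genes of monocytes; Slc2a6, a sugar transporter of the GLUT family; Serpina3g, a serpin; Lap3, a leucine aminopeptidase; Olfm1; Ly6i, a Ly6 family gene; and Tppp3. Ly6i stood at 542 CPM with rhIL-7-hyFc and 191 CPM with buffer, 2.84-fold higher (2.54 to 3.19), and Serpina3g at 129 CPM with rhIL-7-hyFc against 44.0 with buffer. Of Tppp3 UMIs, 1 barcode held 39.7% with rhIL-7-hyFc and 34.8% with buffer, and it had a UMI in 46 barcodes with rhIL-7-hyFc and 27 with buffer. The 10 lowest were Cbr2, a carbonyl reductase, and Folr2, a folate receptor, both known from tissue-resident macrophages; the proteases Mmp12 and Mmp13; Slpi, a protease inhibitor; Slc27a1, a fatty acid transporter; Il7r; Tnfsf9, which encodes the ligand of the costimulator 4-1BB; Clec4d, a C-type lectin; and Ms4a7. Ms4a7, a macrophage gene of the MS4A family, had 582 CPM with rhIL-7-hyFc and 1617 CPM with buffer, 2.78-fold lower (2.61 to 2.96). Folr2 had 30.5 CPM with rhIL-7-hyFc against 151 with buffer and Cbr2 11.2 CPM with rhIL-7-hyFc against 78.9 with buffer. Before thinning Cbr2 had a UMI in 7.05% of macrophages with rhIL-7-hyFc and 8.44% with buffer. The part of Cbr2 UMIs in 1 barcode was 42.3% with rhIL-7-hyFc and 36.2% with buffer. Mmp12 had 99.3 CPM with rhIL-7-hyFc against 374 with buffer, and 1 barcode's part of it was 40.3% with rhIL-7-hyFc and 32.7% with buffer. Among macrophages with fewer than 5 C1q UMIs the log2 ratio of Mmp12 was −0.35 and that of Mmp13 −0.25, both within the fold, against −1.90 and −1.91 in all. A split at 3 C1q UMIs after thinning gave another picture for Mmp12. Below 3 it had 42.0 CPM with rhIL-7-hyFc against 559 with buffer, and from 3 up 164 CPM with rhIL-7-hyFc against 307 with buffer. The gap of Mmp12 in macrophages with little C1q thus depended on the cut used.

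**Figure D2:**
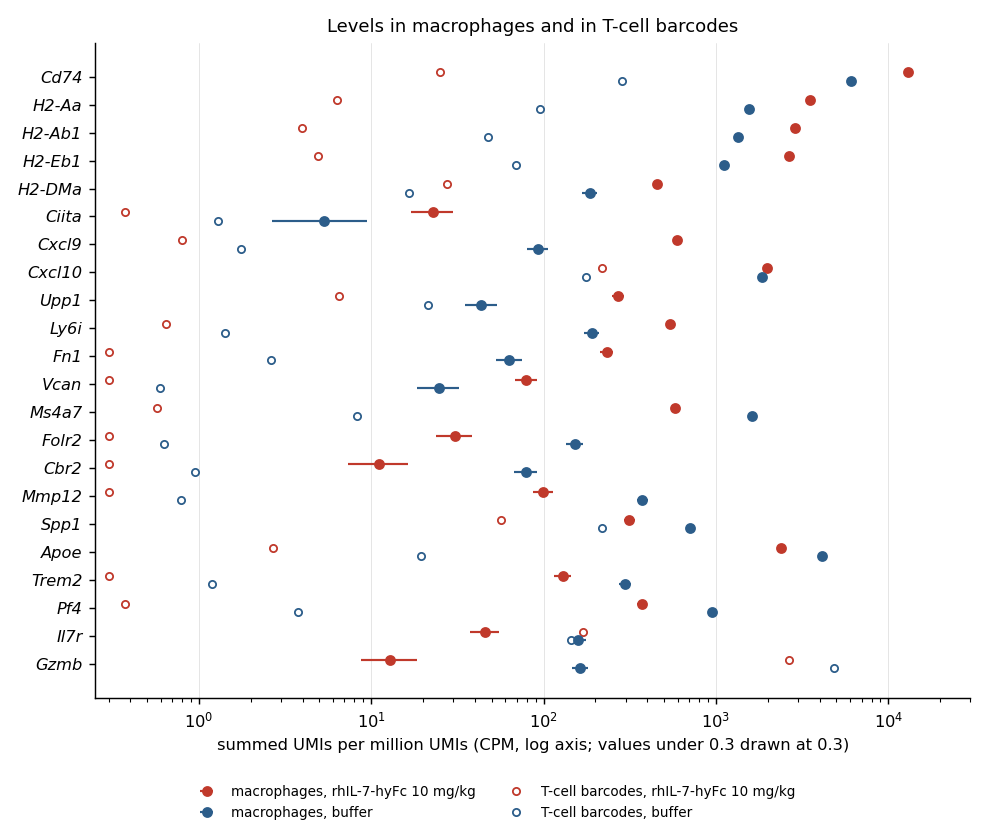
Levels of 22 genes (x axis, CPM, log axis) in macrophages (filled) and T-cell barcodes (open), rhIL-7-hyFc in red and buffer in blue, with exact Poisson intervals on the filled points; values under 0.3 CPM are drawn at 0.3. MHC class II genes, Cxcl9 and Upp1 lie to the right with rhIL-7-hyFc, Ms4a7, Folr2 and Il7r to the left, and Gzmb has open points far to the right of its filled ones.

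MHC class II genes were higher in macrophages with rhIL-7-hyFc. These genes encode the molecules that show peptides to CD4 T cells and the proteins that load them. Of 13 measured genes of the list, 8 were at least 1.5-fold higher and 0 lower, with a median log2 ratio of 1.10 beside −0.014 over all genes. Cd74, the invariant chain, had 12967 CPM with rhIL-7-hyFc and 6114 CPM with buffer, 2.12-fold higher (2.08 to 2.17). H2-Aa had 3538 CPM with rhIL-7-hyFc against 1558 with buffer, H2-Ab1 2883 CPM with rhIL-7-hyFc against 1339 with buffer and H2-Eb1 2647 CPM with rhIL-7-hyFc against 1109 with buffer. H2-DMa, which with its partner exchanges peptides on MHC class II, had 457 CPM with rhIL-7-hyFc against 185 with buffer, and Ciita, the master coactivator of these genes, 22.8 CPM with rhIL-7-hyFc against 5.32 with buffer. The costimulatory genes of the list, Cd40, Cd80 and Cd86, did not reach 1.5-fold, with log2 ratios of 0.33, 0.21 and 0.04. The median was 1.07 without barcodes that had a Cd3 UMI and 1.17 without those that had a Cd8 UMI. In T-cell barcodes Cd74 ran the other way, with 25 CPM with rhIL-7-hyFc and 286 CPM with buffer.

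The MHC class II promoters are printed because 4 of the 8 genes that were higher share a short element in them. MHC class II promoters are known to hold an X box, bound by the RFX complex, and a Y box, bound by the factor NF-Y, on which CIITA assembles. The letters TGATTGG, the core of the Y box, were searched on both strands from 250 bases before to 50 after each gene's start in the RefSeq promoter table (GRCm38.p6). They were found in 6 of the 12 promoters that the table holds for the list, and in 2568 of all 32851 promoters (7.82%). These letters were chosen with the expression results known. The 120 bases before the start are given 5′ to 3′ on the gene's strand, with TGATTGG in capitals.
H2-Aa, chr17:34287824-34287943, minus strand: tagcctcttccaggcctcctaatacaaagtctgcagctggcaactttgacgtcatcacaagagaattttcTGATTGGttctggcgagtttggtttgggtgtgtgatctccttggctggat
H2-Eb1, chr17:34305747-34305866, plus strand: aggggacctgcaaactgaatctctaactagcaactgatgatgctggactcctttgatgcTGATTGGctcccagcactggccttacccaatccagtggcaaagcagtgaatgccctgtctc
H2-DMb1, chr17:34153071-34153190, plus strand: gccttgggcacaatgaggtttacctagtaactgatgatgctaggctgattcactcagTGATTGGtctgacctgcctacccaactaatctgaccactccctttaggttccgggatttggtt
H2-DMb2, chr17:34145129-34145248, plus strand: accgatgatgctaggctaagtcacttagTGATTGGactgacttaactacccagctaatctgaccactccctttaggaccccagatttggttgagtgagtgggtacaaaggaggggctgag
The element begins 50, 61, 63 and 92 bases before the start in the order printed, and the levels of H2-DMb1 and H2-DMb2 were 525 CPM with rhIL-7-hyFc against 244 with buffer and 23.6 CPM with rhIL-7-hyFc against 9.68 with buffer. A match to letters is a description of the promoter and does not show that a factor binds there. The same letters were found in 10 of 19 promoters of MHC class I genes, including those of H2-Q4, H2-Q6 and H2-Q7, which were lower with rhIL-7-hyFc.

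MHC class I presentation as a whole stood near the median of all genes. Of 19 measured genes 0 were higher and 3 lower, with a median of 0.08. The 3 lower ones were the neighbouring non-classical genes H2-Q4, H2-Q6 and H2-Q7, with H2-Q7 at 296 CPM with rhIL-7-hyFc and 714 CPM with buffer. Its level in T-cell barcodes was 936 CPM with rhIL-7-hyFc and 875 with buffer, so the same gene was not lower there. These genes are near-identical copies, and how reads were shared between them by the authors' counting is uncertain.

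Interferon-gamma response genes were higher in part. Of 28 measured genes 9 were higher and 0 lower, with a median of 0.41. Besides Cxcl9 and Ciita these included the GTPases Gbp2 (644 CPM with rhIL-7-hyFc against 258 with buffer) and Iigp1 (217 CPM with rhIL-7-hyFc against 80.3 with buffer), which act against pathogens inside cells. Serpina3g had 129 CPM with rhIL-7-hyFc against 44.0 with buffer in macrophages, 2.94-fold higher (2.32 to 3.76), while T-cell barcodes had 56.0 CPM with rhIL-7-hyFc and 172 with buffer. Other well-known targets did not reach the fold: Irf1 had a log2 ratio of 0.12, Socs1 of 0.01 and Cd274, which encodes PD-L1, of −0.18. The list's median was 0.61 without barcodes that had a Cd8 UMI and 0.11 among macrophages with fewer than 5 C1q UMIs. In T-cell barcodes the same genes had a median of 0.59, beside −0.16 over all genes measured there.

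Type I interferon response genes did not differ past the fold. Of 41 measured genes none was past 1.5-fold in either direction, and the median was 0.01 with log2 ratios from −0.39 to 0.43. Isg15, a ubiquitin-like protein of this response, had 5047 CPM with rhIL-7-hyFc and 4454 CPM with buffer. The same genes had a median of 0.55 in T-cell barcodes, beside −0.16 over all genes measured there. Isg15 stood at 1536 CPM with rhIL-7-hyFc and 898 with buffer in T-cell barcodes. The difference between the cell types was not tested.

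Cxcl9 and Cxcl10 lie side by side on chromosome 5 and encode ligands of the same receptor, CXCR3, yet only Cxcl9 was past the fold. Cxcl10 had 1979.9 CPM with rhIL-7-hyFc and 1852 CPM with buffer, 1.07-fold higher (1.02 to 1.12). Their 250 bases before the start are given for this pair. Capitals mark the letters TGATTGG or their reverse complement CCAATCA, and the core of the interferon-stimulated response element, GAAA, any 2 bases, then GAAA. All were searched on both strands.
Cxcl9, chr5:92328080-92328329, minus strand: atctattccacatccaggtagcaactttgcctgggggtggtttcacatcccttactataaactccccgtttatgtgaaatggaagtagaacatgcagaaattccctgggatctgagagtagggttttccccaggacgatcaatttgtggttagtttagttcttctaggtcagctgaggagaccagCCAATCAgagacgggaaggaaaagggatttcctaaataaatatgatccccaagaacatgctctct
Cxcl10, chr5:92348890-92349139, minus strand: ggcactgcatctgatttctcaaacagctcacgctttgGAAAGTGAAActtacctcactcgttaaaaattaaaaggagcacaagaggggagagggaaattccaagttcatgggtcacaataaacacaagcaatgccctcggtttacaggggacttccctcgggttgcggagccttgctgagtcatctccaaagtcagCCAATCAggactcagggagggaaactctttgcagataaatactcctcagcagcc
Both held CCAATCA, which begins 65 bases before the start in Cxcl9 and 54 in Cxcl10. The response element core was found in Cxcl10, 213 bases before its start, and its letters are not in the Cxcl9 window. It was found in 21 of 37 promoters of the type I interferon response list that the table holds. For the interferon-gamma response list it was 13 of 27, and for all genes 1131 of 32851 promoters (3.44%).

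Monocyte genes were higher in part with rhIL-7-hyFc. Of 15 measured genes 7 were higher and 0 lower, with a median of 0.34. Fn1, which encodes the matrix protein fibronectin, had 232 CPM with rhIL-7-hyFc and 63.4 CPM with buffer, 3.66-fold higher (3.02 to 4.47), and a UMI in 35.3% of macrophages with rhIL-7-hyFc against 8.44% with buffer. Of Fn1 UMIs, 1 barcode held 24.3% with rhIL-7-hyFc and 29.0% with buffer. Vcan, a proteoglycan of classical monocytes, had 79.5 CPM with rhIL-7-hyFc against 24.7 with buffer, and Plac8 2422 CPM with rhIL-7-hyFc against 1364 with buffer. Plac8 is also abundant in T-cell barcodes (1478 CPM with rhIL-7-hyFc and 1498 with buffer). Ccr2, the receptor by which monocytes leave the marrow, had 279 CPM with rhIL-7-hyFc against 239 with buffer and did not reach the fold. Among macrophages with fewer than 5 C1q UMIs the list's median was −0.15, and it was above 0 in the other 20 alternatives run.

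Genes of lipid and lysosome handling were lower in part with rhIL-7-hyFc. The macrophage core list holds all 5 genes that chose the members. Of its 13 others 0 were higher and 3 lower, Lgmn and Cd63 among them, with a median of −0.24. Of 26 measured genes of the lipid, lysosome and Trem2 list 0 were higher and 14 lower, with a median of −0.65. Trem2, a lipid-sensing receptor, had 129 CPM with rhIL-7-hyFc and 297 CPM with buffer, 2.30-fold lower (2.00 to 2.65). Apoe, which carries cholesterol, had 2397 CPM with rhIL-7-hyFc against 4151 with buffer, Spp1, which encodes osteopontin, 315 CPM with rhIL-7-hyFc against 707 with buffer, and Gpnmb, a lysosomal glycoprotein, 85.6 CPM with rhIL-7-hyFc against 197 with buffer. The cathepsins Ctsb and Ctsl had 3908 CPM with rhIL-7-hyFc against 7045 with buffer and 829.8 CPM with rhIL-7-hyFc against 1695 with buffer. Among macrophages with at least 3 C1q UMIs after thinning Apoe was within the fold, at 3706 CPM with rhIL-7-hyFc against 4743 with buffer. There Trem2 was still lower, at 174 CPM with rhIL-7-hyFc against 345 with buffer. With fewer than 3, Apoe had 1164 CPM with rhIL-7-hyFc against 2774 with buffer. Before thinning Gpnmb had a UMI in 19.9% of macrophages with rhIL-7-hyFc and 18.2% with buffer. Of its UMIs, 1 barcode held 30.2% with rhIL-7-hyFc and 16.9% with buffer. Counted as a mean over barcodes rather than a sum, the list's median was −0.28, and after thinning it was −0.37.

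Uptake and complement genes went both ways. Of 13 measured genes 2 were higher, the complement components Cfb (381 CPM with rhIL-7-hyFc against 240.5 with buffer) and C3 (182 CPM with rhIL-7-hyFc against 117 with buffer), and 4 lower, among them Folr2 and the anaphylatoxin receptors C3ar1 (486 CPM with rhIL-7-hyFc against 945 with buffer) and C5ar1 (321 CPM with rhIL-7-hyFc against 541 with buffer). Mrc1, the mannose receptor, had 111 CPM with rhIL-7-hyFc against 128 with buffer, and did not reach the fold. Of 8 Fc receptor genes 0 were higher and 2 lower (Fcrls at 18.5 CPM with rhIL-7-hyFc against 46.9 with buffer and Fcgrt at 33.5 CPM with rhIL-7-hyFc against 64.4 with buffer), and the activating receptor Fcgr4 had 491 CPM with rhIL-7-hyFc against 527 with buffer.

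Among chemokine genes more were lower than higher. Of 17 measured genes 2 were higher and 7 lower, with a median of −0.46. The lower ones included the monocyte attractants Ccl2 (1891 CPM with rhIL-7-hyFc against 3160.3 with buffer) and Ccl7 (2149 CPM with rhIL-7-hyFc against 3947 with buffer), Ccl8 (259 CPM with rhIL-7-hyFc against 595 with buffer), Ccl3 (238 CPM with rhIL-7-hyFc against 586 with buffer) and Pf4, which encodes platelet factor 4, at 375 CPM with rhIL-7-hyFc and 954 CPM with buffer. Ccl24 was higher at 38.3 CPM with rhIL-7-hyFc against 7.74 with buffer, but 1 barcode carried 46.1% of it with rhIL-7-hyFc and 75% with buffer. The level of Ccl3 in T-cell barcodes was 40.4 CPM with rhIL-7-hyFc and 202 with buffer, and the part of T cell RNA in its ratio was not tested. Of 9 chemokine receptor genes 0 were higher and 3 lower, among them Ccrl2, which holds chemerin at the cell surface (345 CPM with rhIL-7-hyFc against 632 with buffer), and Cx3cr1, the fractalkine receptor (21.5 CPM with rhIL-7-hyFc against 32.9 with buffer), which stayed past the fold in 13 of 21 alternatives (log2 ratios from −1.39 to −0.16). The 21 include settings of minimum CPM, which leave a gene's ratio unchanged.

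Of 20 inflammatory cytokine and sensor genes 2 were higher and 5 lower. Tnf had 155 CPM with rhIL-7-hyFc against 290.3 with buffer, Il1rn, which blocks the interleukin-1 receptor, 556 CPM with rhIL-7-hyFc against 1059 with buffer, and Tnfsf9 34.4 CPM with rhIL-7-hyFc against 113 with buffer. Il1b had 2090.4 CPM with rhIL-7-hyFc against 2503 with buffer and did not reach the fold. Of 17 genes of suppression and checkpoint ligands 0 were higher and 1 lower, near the share of all genes that were lower (7.64%). The lower one was Ptgs2, which makes prostaglandins (82.1 CPM with rhIL-7-hyFc against 128 with buffer). It stayed past the fold in 14 of 21 alternatives, with log2 ratios from −1.61 to −0.15. Among the 21 were settings of minimum CPM, which leave a gene's ratio unchanged. Arg1, which depletes arginine, had 235 CPM with rhIL-7-hyFc and 277 CPM with buffer, and Cd274 210.2 CPM with rhIL-7-hyFc against 238 with buffer.

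Of 18 hypoxia and angiogenesis genes 0 were higher and 5 lower, with a median of −0.38. Among them Vegfa, which encodes the vascular growth factor, had 40.4 CPM with rhIL-7-hyFc against 87.1 with buffer and Hmox1, which breaks down haem, 301 CPM with rhIL-7-hyFc against 641 with buffer. The 16 glycolysis genes had 0 higher and 1 lower, near the 7.64% lower of all genes, with a median of −0.12. Of 8 cholesterol synthesis genes 3 were higher, Fdft1 and Srebf2 among them, with a median of 0.51 that was 0 after thinning. None of 32 oxidative phosphorylation genes and none of 51 cytosolic ribosomal protein genes was past the fold, with medians of 0.23 and 0.27.

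Matrix genes and proteases went both ways, with 4 of 17 higher and 6 lower. Besides Fn1 and Vcan the higher ones were the protease Mmp19 (55.0 CPM with rhIL-7-hyFc against 27.6 with buffer) and Timp1, an inhibitor of such proteases (26.7 CPM with rhIL-7-hyFc against 12.1 with buffer). The lower ones included Mmp13, a collagenase (41.3 CPM with rhIL-7-hyFc against 158 with buffer), and Slpi (41.3 CPM with rhIL-7-hyFc against 200.3 with buffer). Before thinning Slpi had a UMI in 18.6% of macrophages with rhIL-7-hyFc and 12.9% with buffer. Macrophages were deeper with rhIL-7-hyFc (median 14206.5 UMIs against 8953 with buffer). The share with Slpi at 1 depth was not taken. Of its UMIs, 1 barcode held 13.5% with rhIL-7-hyFc and 27.1% with buffer. Cell cycle genes rested on few UMIs. Of 4 measured genes of G2 and mitosis 2 were higher and 1 lower, and of 14 S phase genes 2 were higher and 1 lower. Over all genes 5.62% were higher and 7.64% lower. Top2a, a topoisomerase of dividing cells, had 36.5 CPM with rhIL-7-hyFc against 15.5 with buffer, while Birc5 and Tk1 changed sign when barcodes with a Cd3 UMI were left out. Of 10 metallothionein and oxidative stress genes 0 were higher and 3 lower, among them Sqstm1, an autophagy receptor (464 CPM with rhIL-7-hyFc against 849 with buffer).

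**Figure D3:**
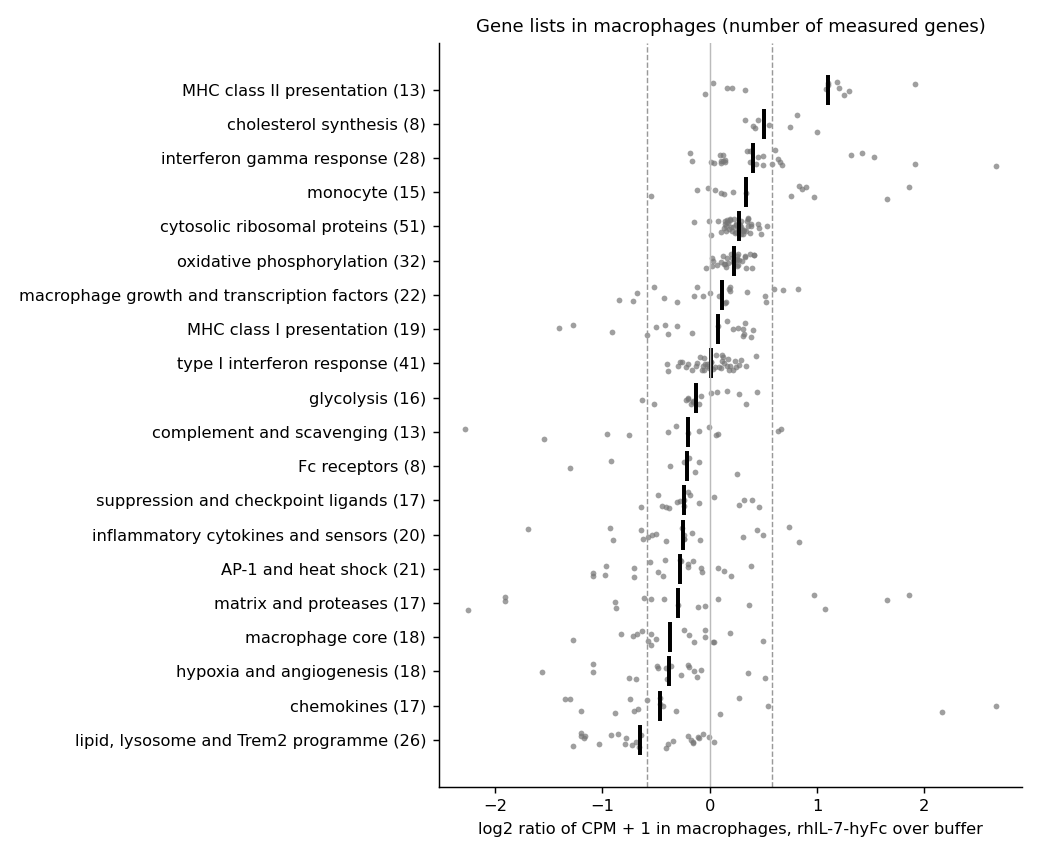
Log2 ratio of CPM + 1, rhIL-7-hyFc over buffer (x axis), of each measured gene (grey points, jittered up and down) in 20 gene lists (y axis, number of measured genes in brackets), with the list median as a black bar. Dashed lines mark 1.5-fold. The MHC class II list lies furthest to the right (median 1.10) and the lipid, lysosome and Trem2 list furthest to the left (−0.65) of the lists drawn.

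Immediate early genes, which warm enzymatic digestion of tissue can induce, were lower in part with rhIL-7-hyFc. Of 21 measured AP-1 and heat shock genes 0 were higher and 6 lower, with a median of −0.28. Jun had 512 CPM with rhIL-7-hyFc against 1007 with buffer, and Dusp1, a phosphatase induced by stress, had 1262 CPM with rhIL-7-hyFc against 2685 with buffer. In T-cell barcodes the same genes had a median of −0.21, near the −0.16 over all genes measured there. The part of the tissue digestion in these values was not tested.

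Among receptors of the cytokine given and its family, Il7r stood out in macrophages. Il7r encodes the alpha chain of the interleukin-7 receptor, which also serves thymic stromal lymphopoietin together with Crlf2. It had 45.6 CPM with rhIL-7-hyFc and 159 CPM with buffer, 3.49-fold lower (2.80 to 4.39), and a UMI in 24.4% of macrophages with rhIL-7-hyFc against 39.1% with buffer. T-cell barcodes had 169.9 CPM of Il7r with rhIL-7-hyFc and 144 with buffer, so in buffer macrophages Il7r was as high per UMI as in T-cell barcodes. The T cell marker list without the Cd3 genes, which does not hold Il7r, summed in buffer macrophages to 3.10% of its level in T-cell barcodes. The part of T cell RNA in the Il7r values was not tested. After thinning Il7r was seen in 12.7% of macrophages with rhIL-7-hyFc (7.80 to 19.1) and 23.6% with buffer (17.8 to 30.2), against 30.0% (rhIL-7-hyFc) and 25.3% (buffer) of T-cell barcodes. Its log2 ratio was −1.63 without barcodes that had a Cd3 UMI and −2.16 without those that had a Cd8 UMI. Il2rg, the common gamma chain, had 435 CPM with rhIL-7-hyFc against 335 with buffer and Crlf2 196 CPM with rhIL-7-hyFc against 255 with buffer, both under 1.5-fold. Il2rb, a chain of the interleukin-2 and interleukin-15 receptors that is high in T cells, had 5.59 CPM with rhIL-7-hyFc against 22.3 with buffer, with 729.8 CPM with rhIL-7-hyFc and 1032 with buffer in T-cell barcodes. Il15ra, which presents interleukin-15 to neighbouring cells, was the 1 higher gene of 15 measured, with 33.5 CPM with rhIL-7-hyFc against 18.4 with buffer. This count is near the share of all genes that were higher (5.62%).

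Of 22 transcription and growth factor genes 3 were higher and 3 lower. Cebpb, a factor of myeloid cells, had 639 CPM with rhIL-7-hyFc and 360.0 CPM with buffer, 1.77-fold higher (1.62 to 1.94). Nr1h3, which encodes the oxysterol receptor LXR-alpha, had 87.3 CPM with rhIL-7-hyFc against 144 with buffer. Csf1r and Spi1, which encodes PU.1, stood at 386 CPM with rhIL-7-hyFc against 337 with buffer and 728 CPM with rhIL-7-hyFc against 761 with buffer.

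Depth differed between the libraries, so shares of macrophages with a gene were taken after each barcode was thinned to 2300 UMIs, which left 150 of 156 macrophages with rhIL-7-hyFc and 195 of 225 with buffer. At least 3 C1q UMIs were seen in 48.0% with rhIL-7-hyFc (39.8 to 56.3) and 70.3% with buffer (63.3 to 76.6), although the rule used these genes. At least 10 UMIs of H2-Aa, H2-Ab1, H2-Eb1 and Cd74 were seen in 66.7% with rhIL-7-hyFc (58.5 to 74.1) and 40.5% with buffer (33.6 to 47.8). In T-cell barcodes this was 0.0370% with rhIL-7-hyFc and 1.13% with buffer. Before thinning the shares of macrophages were 58.3% with rhIL-7-hyFc and 78.7% with buffer for C1q, and 87.2% with rhIL-7-hyFc and 56.9% with buffer for MHC class II. Cxcl9 was seen in 30.7% of macrophages with rhIL-7-hyFc (23.4 to 38.7) and 8.72% with buffer (5.16 to 13.6). Before thinning it was seen in 43.6% with rhIL-7-hyFc and 13.8% with buffer. More macrophages thus carried Cxcl9 RNA with rhIL-7-hyFc, and the barcode with most Cxcl9 carried 8.35% of the gene's UMIs with rhIL-7-hyFc and 16.8% with buffer. Upp1 was seen in 37.3% with rhIL-7-hyFc and 8.21% with buffer (62.2% with rhIL-7-hyFc and 15.1% with buffer before thinning). Ms4a7 was seen in 46.0% with rhIL-7-hyFc and 80.0% with buffer (66.0% with rhIL-7-hyFc and 84.4% with buffer before). Folr2 was seen in 6.00% with rhIL-7-hyFc and 16.4% with buffer (15.4% with rhIL-7-hyFc and 32.0% with buffer before). At least 2 Arg1 UMIs were seen in 11.3% with rhIL-7-hyFc and 13.8% with buffer. For at least 3 Spp1 UMIs it was 8.0% with rhIL-7-hyFc and 14.4% with buffer. For at least 2 Mrc1 UMIs it was 5.33% with rhIL-7-hyFc and 5.64% with buffer. A UMI of the cycling genes Mki67 or Top2a was seen in 7.33% with rhIL-7-hyFc and 6.15% with buffer. These intervals count barcodes of 1 library per group, so whether they overlap does not show if the groups differ.

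**Figure D4:**
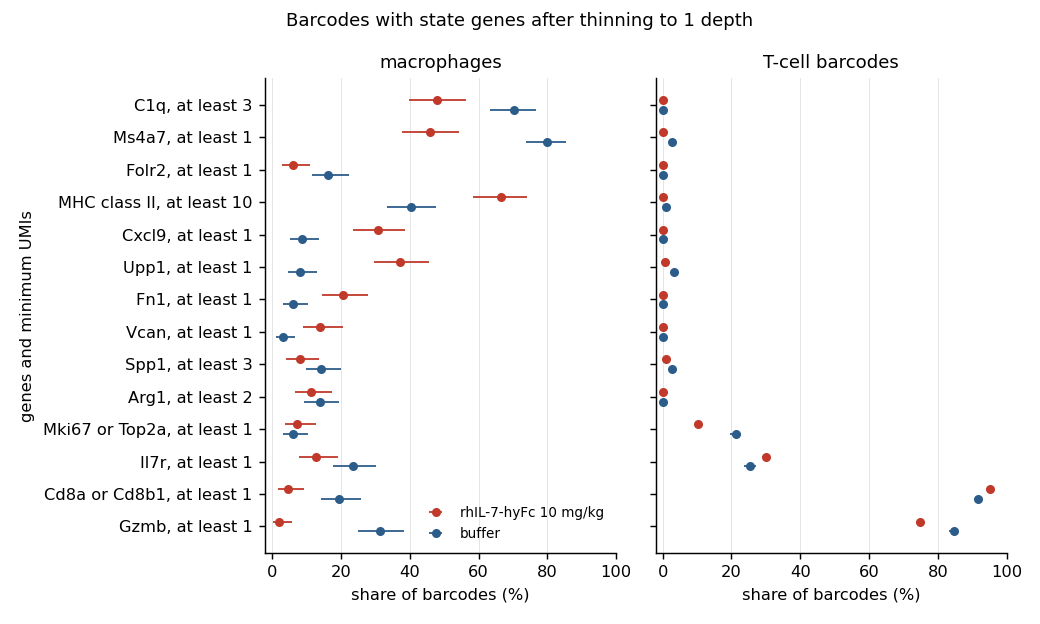
Share of barcodes (x axis, percent, with exact binomial intervals) in which the named genes reached a minimum of UMIs (y axis) after thinning, in macrophages (left) and T-cell barcodes (right), with rhIL-7-hyFc above buffer. Macrophage shares of MHC class II, Cxcl9 and Upp1 lie higher with rhIL-7-hyFc, those of C1q, Ms4a7 and Gzmb lie higher with buffer, and the first 10 sets of genes are near 0 in T-cell barcodes.

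Since fewer macrophages with rhIL-7-hyFc carried C1q, the same ratios were taken within macrophages that had at least 3 C1q UMIs after thinning (72 with rhIL-7-hyFc, 137 with buffer) and those with fewer (78 with rhIL-7-hyFc, 58 with buffer). The class uses genes of the member rule, and the values are a description. In the C1q class H2-Aa had 3442 CPM with rhIL-7-hyFc against 1696 with buffer, Cxcl9 528 CPM with rhIL-7-hyFc against 119 with buffer and Upp1 161 CPM with rhIL-7-hyFc against 19.6 with buffer. In the class with little C1q, H2-Aa had 3633 CPM with rhIL-7-hyFc against 1286 with buffer, Cxcl9 649 CPM with rhIL-7-hyFc against 32.4 with buffer and Upp1 371 CPM with rhIL-7-hyFc against 101 with buffer. These genes were thus higher, and Ms4a7 (903 CPM with rhIL-7-hyFc against 1902 with buffer, then 286 CPM with rhIL-7-hyFc against 973 with buffer) and Il7r (69.0 CPM with rhIL-7-hyFc against 161 with buffer, then 24.7 CPM with rhIL-7-hyFc against 158 with buffer) lower, in both classes. Spp1 differed little in the C1q class (307 CPM with rhIL-7-hyFc against 354 with buffer) and was lower with rhIL-7-hyFc in the other (323 CPM with rhIL-7-hyFc against 1545 with buffer). Plac8 was higher in the C1q class (1499 CPM with rhIL-7-hyFc against 761 with buffer) and within the fold in the other (3275 CPM with rhIL-7-hyFc against 2895 with buffer). Whether the classes differ from each other was not tested.

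**Figure D5:**
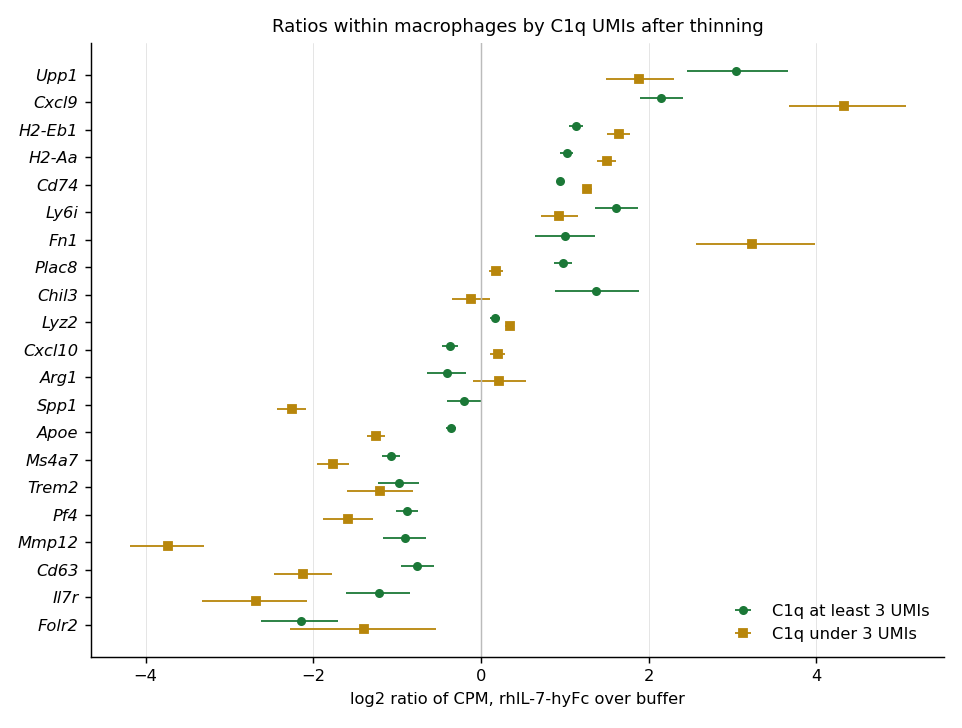
Log2 ratio of CPM, rhIL-7-hyFc over buffer (x axis, with exact counting intervals), for 21 genes (y axis) within macrophages with at least 3 C1q UMIs (green circles) and with fewer (gold squares). MHC class II genes, Cxcl9 and Upp1 lie right of 0 and Ms4a7, Il7r and Folr2 left of 0 in both classes, whereas Spp1 lies further left in the class with little C1q.

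The dose of rhIL-7-hyFc in experiment 2 was 1.25 mg/kg, with or without a T cell engager (TCE, against mouse PD-L1 and CD3-epsilon, into a vein from 3 days after rhIL-7-hyFc). Tumours were taken 24 hours after the last treatment, and viable CD45+ TCRb+ CD8a+ cells were sorted by flow cytometry. The same rule found 66 of 11301 barcodes with rhIL-7-hyFc plus TCE (0.584%, 0.452 to 0.742) and 678 of 12307 with rhIL-7-hyFc alone (5.51%, 5.11 to 5.93). Such cells should not pass this sort, and dose, timing, isolation and software version all differ from experiment 1, so no fold is drawn across experiments. Their Lyz2 level was 13445 CPM with TCE and 10111 without, their C1qa level 294 CPM with TCE and 727 without, their Cd74 level 7665 CPM with TCE and 7815 without, their Cxcl9 level 95 CPM with TCE and 319 without, and their Il7r level 71.2 CPM with TCE and 122 without. The group with TCE rests on 421274 UMIs.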

How the data were processed

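The members and gene lists were chosen with earlier results of these data known. The deposited matrices hold unnormalized UMI counts of each gene in each barcode. Per the file headers the authors made them with Cell Ranger 4.0.0 (experiment 1) and 6.1.2 (experiment 2), and the submitters' processing notes name GRCm38. TCR contigs are the authors' deposited tables, with UMI counts per contig. The upstream choice of barcodes is not described in the sources used here.

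Counts were summed over members of each library and scaled to CPM. Log2 ratios used CPM + 1, genes with at least 20 CPM in 1 library were measured, and a gene past 1.5-fold was called higher or lower. With 1 library per group no test was run. CPM have exact Poisson, shares exact Clopper-Pearson and folds exact conditional binomial intervals (95%, scipy 1.17.1). A share of 0 was given a limit of 3 barcodes. No doublet caller was run, and the Cd3 rule and TCR contigs stand in for one. Thinning to 2300 UMIs used seed 7. Only the fold, its interval and the calls were tried on simulated data, as sums per library without spread between barcodes. The member rule, thinning, TCR matching and C1q classes were not tried this way.

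Named genes were, with at least 50 CPM and at least the T-cell barcodes' level, the 10 highest and 10 lowest, the 3 highest and 3 lowest of those under that level, the 3 widest of each list, and a set always named. Other list members named were chosen after their values were seen. Some genes that the rule or the lists take are not reported here. Alternatives changed the member rule, depth, scaling (edgeR 4.0.16 TMM), minimum CPM and pseudocount.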

Additional observations from a re-analysis of the deposited data

Results flagged for a closer look

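For 12 of 129 named genes the log2 ratio of rhIL-7-hyFc over buffer was past 1.5-fold in opposite directions in macrophages and in T-cell barcodes of the same libraries. The difference was not tested, since each group is 1 library. Many named genes were picked for wide ratios in macrophages, and the same count over all measured genes was not taken. Whether 12 of 129 is more than among all genes is thus not known. Among MHC class II genes the ratio was 1.08 in macrophages and −3.47 in T-cell barcodes for Cd74, 1.11 and −3.29 for H2-Ab1, and 1.25 and −3.58 for H2-Eb1. In T-cell barcodes Cd74 stood at 25 CPM with rhIL-7-hyFc and 286 with buffer, H2-Ab1 at 3.99 CPM with rhIL-7-hyFc and 47.9 with buffer, and H2-Eb1 at 4.89 CPM with rhIL-7-hyFc and 69.2 with buffer. Upp1 had 2.60 in macrophages and −1.57 in T-cell barcodes, Serpina3g 1.53 and −1.60, and S100a4, a calcium-binding protein of monocytes, 0.97 and −1.65. The cell cycle genes were Top2a with 1.19 and −0.98, Tk1 with 0.94 and −1.19, Mcm3 with 0.68 and −1.10, and Birc5 with 0.61 and −0.83, in the same order. Fdft1, which makes squalene, had 1.00 and −1.02. Fcgrt, the neonatal Fc receptor, ran the other way, with −0.92 in macrophages and 3.25 in T-cell barcodes, where it stood at 70.1 CPM with rhIL-7-hyFc and 6.49 CPM with buffer.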

How the results depend on the processing

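The rhIL-7-hyFc share of macrophages was 2.01% with no Cd3 UMI allowed. The buffer share was 4.07% with at least 20 marker UMIs, 2.38% with no Cd3 UMI, 2.60% with no Cd8 UMI and 8.01% with mixed barcodes lacking a TCR contig added, the last an alternative chosen after seeing the data, as were a C1q limit, a depth limit of 8000 UMIs and leaving out each gene's top barcode. Counts of genes higher and lower were 835 and 681 with fewer than 5 C1q UMIs (55.1% of calls higher, against 42.4% as reported), 792 and 1135 after thinning, 632 and 1083 at a minimum of 5 CPM, 149 and 180 at 50 CPM, and 1276 and 1947 with no minimum. Means over barcodes gave 316 and 729 (30.2% higher), TMM factors 377 and 318 (54.2%) and median-of-ratios factors 431 and 279 (60.7%). Of the log2 ratios of named genes over these settings 2280 stayed within their counting interval, 414 moved, and 15 turned the sign of a gene past the fold. The settings of minimum CPM leave a gene's ratio unchanged, so their ratios are among the 2280 by construction. Genes within the fold also changed sign, such as Arg1 (−0.38 to 0.57), Mrc1 (−0.42 to 0.94) and Cxcl10 (−0.10 to 0.28). The turned signs of genes past the fold were in Birc5 (−0.30 with no Cd3 UMI, −0.10 without the 10% of barcodes richest in UMIs, −1.01 without cycling barcodes, −1.40 thinned), Tk1 (−0.51 with no Cd3 UMI), Srebf2 (−0.035 thinned), Klk1 (−0.97 with no Cd8 UMI, −1.63 with little C1q, −1.55 without its top barcode), Cox6a2 (−2.35, −2.38 and −2.03 under the same 3), and, with little C1q, Fcrls (0.27), Fcgrt (0.13) and Mt2 (1.16). The cause was not tested. The MHC class II median stayed between 0.81 and 1.19, that of the lipid list between −0.73 and −0.28, and the ratio of Cxcl9 between 2.19 and 3.63. No paired analysis was possible because each group is 1 library.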
